A study of Mus musculus with 6 samples.

Results

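The 34 genes described here encode the enzymes that burn fatty acids in mitochondria and that make or use ketone bodies, together with the steps that lead into this pathway. They were taken by gene symbol, from a list covering fatty acid activation, the carnitine shuttle, the acyl-CoA dehydrogenases, the hydratase to thiolase reactions, the auxiliary enzymes for unsaturated chains, the electron transfer flavoprotein, the acyl-CoA thioesterases and the ketone body enzymes. All 34 were among the 35976 rows of the count table, and all 34 were among the 14542 genes with enough counts to be tested. A few of them also work outside mitochondria, such as Acot1, a cytosolic thioesterase, and Acsl4, an acyl-CoA synthetase of the endoplasmic reticulum.

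RNA-seq was carried out on brown adipose tissue (BAT) from 3 wild-type (WT) mice and 3 sST2-KO mice, all 10-week-old males on a C57BL/6J background. sST2 is the soluble form of ST2, the IL-33 receptor encoded by Il1rl1. The sST2-KO line has lost the intron from exon 8 to exon 9 of that gene, cut out with CRISPR/Cas9, and the WT mice were littermates from heterozygous parents. The sympathetic nerves of the BAT had been cut in every mouse of both groups, and every mouse had then been kept at 10 °C for 8 h, so there was no innervated and no warm group. The comparison asks how the expression of BAT genes differs when sST2 is missing under these conditions. sST2 is missing from the whole animal in this line, not from one cell type.

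The libraries held between 8159442 and 12874809 counts. Levels are given as CPM, counts scaled to library size after TMM normalization, with replicates 1, 2 and 3 in that order. edgeR's quasi-likelihood test compared the sST2-KO with the WT libraries, and a gene is said to have risen or fallen where its Benjamini-Hochberg adjusted p over all 14542 genes was under 0.05. The targeted gene, Il1rl1, had 19, 19 and 6 counts in WT and 55, 69 and 142 counts in sST2-KO libraries, but a count over the whole gene mixes its soluble and membrane forms and does not check the genotype. Brown adipocyte markers were present in all 6 libraries but at unlike levels. Ucp1, the uncoupling protein, was at 5229, 6460.5 and 10522 CPM in WT and 160.4, 1042 and 153 CPM in sST2-KO libraries. WT replicate 2 stood apart by its liver genes, with Alb, the gene for serum albumin, at 3192 CPM against 1.31 to 23.7 CPM in the other libraries. Skeletal muscle genes were higher in every sST2-KO library than in any WT library, as described with the totals below.

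In beta-oxidation, a fatty acid is first joined to coenzyme A, passed through the inner mitochondrial membrane as a carnitine ester, and then shortened in repeated rounds of dehydrogenation, hydration, a further dehydrogenation and thiolysis. The electrons of the first dehydrogenation reach the respiratory chain through the electron transfer flavoprotein and its own dehydrogenase. In BAT this pathway feeds the uncoupled mitochondria that produce heat, and brown adipocytes are known for a high content of its enzymes.

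Transcripts of most of these enzymes were less abundant in the BAT of sST2-KO mice. Of the 34 genes, 25 fell, 0 rose and 9 did not pass the test, while over all genes tested 9.10% fell and 10.5% rose. Among the 25, 23 had fallen by more than 2-fold, as had 7.10% of all genes tested, and 9.04% had risen by as much. Their median log2 fold change was -1.87, against 0.03 over all genes tested, and 32 of the 34 values were below 0, as were 48.0% of all values. In 29 genes each sST2-KO library lay below each WT library, as it did in 19.7% of all genes, and in 1 gene, Acsl4, each lay above, as in 21.8% of all genes. In whole tissue, fewer cells of a type and less RNA per cell cannot be told apart.

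The summed level of the 34 genes was 15722, 20854 and 25037 CPM in WT libraries and 6127, 6830.1 and 2965 CPM in sST2-KO libraries. The groups did not overlap, and the mean was 20538 ± 4666 CPM (SD, n = 3) in WT and 5307 ± 2059 CPM (SD, n = 3) in the knockout group. These transcripts made up 1.56% to 2.06% of all counts in WT libraries and 0.337% to 0.705% in sST2-KO libraries. sST2-KO replicate 3 was the lowest of the 6 libraries for 27 of the 34 genes. Among the 25 genes that fell, WT replicate 1 was the lowest WT library for 24 and WT replicate 3 the highest for 19.

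The calls depended on single libraries, although the sizes of the changes did so less. Without WT replicate 3, 0 of the 34 genes passed edgeR's test, the lowest adjusted p among them being 0.0608, while 27 still had an unadjusted p under 0.05. In that fit 0.146% of all genes were called lower and 0.239% higher, and the 34 enzymes had a median log2 fold change of -1.70. Without WT replicate 2, the library with liver RNA, 8 genes fell, and 3.25% of all genes did. Without sST2-KO replicate 3 it was 18, and 4.65% of all genes. With both of these libraries left out, 13 genes fell, as did 3.16% of all genes, and the median log2 fold change was -1.53. DESeq2 called 29 of the genes lower, and 10.2% of all genes it tested, adding Acad12, Acadm, Etfa and Oxct1 to the same 25.

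**Figure D1:**
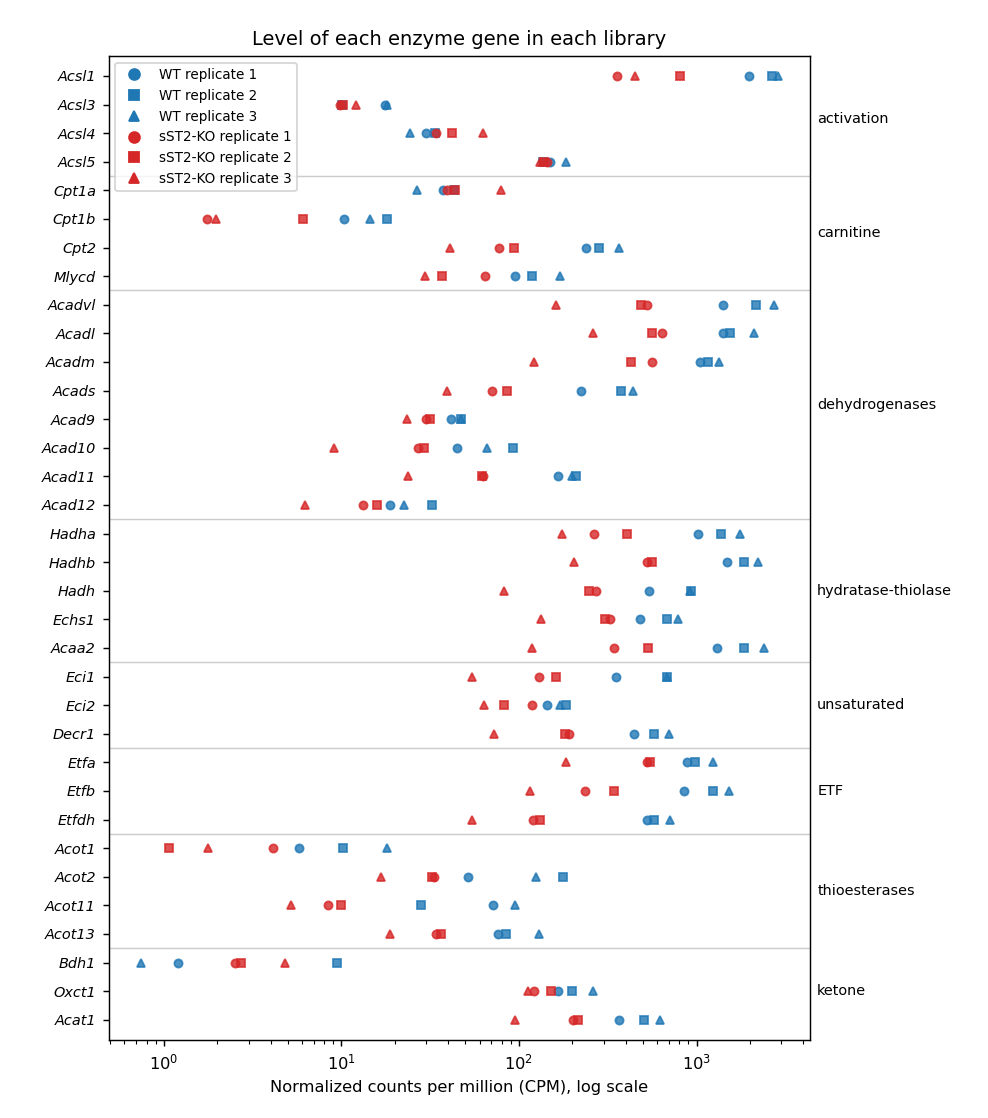
Level of each of the 34 enzyme genes in each library, in normalized CPM on a log scale, grouped by step of the pathway. Blue symbols are the 3 WT libraries and red symbols the 3 sST2-KO libraries. In 29 genes all red symbols lie to the left of all blue ones, and the red triangle, sST2-KO replicate 3, is the leftmost symbol in 27.

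To show the regulatory sequence next to the expression values, the promoters of these genes were searched in the RefSeq promoter windows, which run from 250 bases before to 50 after a start site. Of the 34 genes, 28 had a window, 31 windows in all, and Acaa2, Acad9, Acat1, Acot13, Cpt1b and Decr1 did not. The motifs were searched on both strands. They were AGGTCA, a nuclear receptor core site, AGGTCANAGGTCA, the element of PPAR with RXR, TCAAGGTCA, the element of estrogen-related receptors, and TGACGTCA, the cAMP response element. The core site is also contained in the PPAR and estrogen-related receptor elements. It occurred in 4 of the 31 windows, or 12.9%, against 16.3% of all 32851 mouse windows. The other motifs occurred in 0 of the 31 windows, and in 0.0396%, 0.423% and 1.79% of all windows, in the order given. A match shows only that these letters stand in this window, and a missing match says nothing about binding elsewhere. The windows with a core site belonged to Acadm, Acadvl, Cpt1a and Echs1, of which Acadvl and Echs1 fell in sST2-KO BAT and Acadm and Cpt1a did not pass the test. Echs1 is not shown, as an annotated exon spans most of its window. The part from 250 to 41 bases before the start is shown for a long-chain dehydrogenase, a medium-chain dehydrogenase and the non-muscle carnitine transferase. Each is written 5′ to 3′ on the strand of its gene, with the core site, read on either strand, in capitals. Acadvl lies at chr11:69906295-69906504 on the minus strand, Acadm at chr3:153650321-153650530 on the minus strand and Cpt1a at chr19:3373051-3373260 on the plus strand. These are GRCm39 positions from an exact match of the RefSeq sequence, whose table is on GRCm38.p6. The Cpt1a stretch lies inside the gene as GENCODE places it, 3371853 to 3437996, so its RefSeq start is not the first annotated start.
Acadvl: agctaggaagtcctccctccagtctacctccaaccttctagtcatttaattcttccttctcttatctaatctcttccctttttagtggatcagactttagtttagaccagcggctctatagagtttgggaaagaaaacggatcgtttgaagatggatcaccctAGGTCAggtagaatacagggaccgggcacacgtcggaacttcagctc
Acadm: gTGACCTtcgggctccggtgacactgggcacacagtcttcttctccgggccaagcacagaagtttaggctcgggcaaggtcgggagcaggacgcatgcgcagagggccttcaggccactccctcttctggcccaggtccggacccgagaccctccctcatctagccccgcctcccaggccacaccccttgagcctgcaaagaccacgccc
Cpt1a: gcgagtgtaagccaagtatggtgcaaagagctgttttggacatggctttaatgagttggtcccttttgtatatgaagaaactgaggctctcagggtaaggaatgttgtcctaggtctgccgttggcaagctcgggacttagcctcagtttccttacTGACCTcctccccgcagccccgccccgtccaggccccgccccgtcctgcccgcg
The first base of the site stood 87 bases before the start in Acadvl, 249 in Acadm and 94 in Cpt1a. The stretches also differed in base composition, with 45.7% G and C and 6 CpG dinucleotides in Acadvl, 65.7% and 11 in Acadm and 56.7% and 10 in Cpt1a.

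Of the 4 acyl-CoA synthetases, which activate fatty acids, 1 fell. This was Acsl1, a long-chain synthetase typical of adipocytes, whose transcript had the highest WT level of the 4, at 434 ± 81.1 CPM per kilobase of transcript (SD, n = 3). Its level was 1986, 2658 and 2887 CPM in WT and 358, 806 and 449 CPM in sST2-KO libraries. The groups were far apart, and the log2 fold change was -2.22 (SE 0.39, edgeR adjusted p = 0.0154). Acsl4, which prefers arachidonic acid, was at 30.0, 33.7 and 24.4 CPM in WT and 34, 41.9 and 63.1 CPM in sST2-KO libraries. Each sST2-KO value was above each WT value, the closest by a small margin, and the log2 difference of 0.65 (SE 0.26) did not pass the test (edgeR adjusted p = 0.118). Acsl5 ranged from 136 to 185 CPM in WT and from 131 to 143 CPM in sST2-KO libraries, which overlap. Acsl3, a synthetase found on lipid droplets, ranged from 10.1 to 18.1 CPM in WT and from 9.83 to 12.1 CPM in sST2-KO libraries, which overlap as well. The log2 fold changes of Acsl5 and Acsl3 were -0.19 and -0.51 (edgeR adjusted p = 0.506 and 0.237), and the sign of Acsl5 turned with scaling by total counts. Acsl5 shares exon sequence with Zdhhc6 on the opposite strand, so its counts may hold some reads of that gene.

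In the carnitine shuttle, Cpt1b and Cpt2 fell while Cpt1a did not pass the test. Cpt1a and Cpt1b are alternative forms of the carnitine palmitoyltransferase of the outer membrane, the step that malonyl-CoA inhibits, and Cpt1b is the form of muscle and brown fat. Cpt1b was at 10.4, 18.0 and 14.5 CPM in WT and 1.74, 6.05 and 1.97 CPM in sST2-KO libraries. Its log2 fold change was -2.16 (SE 0.51, edgeR adjusted p = 0.0288). It was -2.96 without sST2-KO replicate 2, and the call was lost without WT replicate 2 or 3 or sST2-KO replicate 1 or 3. The level of this gene is uncertain, as 86.2% of the 100-base windows of its transcript also occur in other genes. The largest share was with Gm44502, an overlapping gene on the same strand with 0 counts in all 6 libraries. Cpt1a was at 37.3, 42.9 and 26.5 CPM in WT and 39.2, 43.5 and 79.1 CPM in sST2-KO libraries. The groups overlapped, with sST2-KO replicate 3 standing above the rest, and the log2 difference was 0.60 (SE 0.31, edgeR adjusted p = 0.212). Cpt2, the transferase of the inner membrane that gives back acyl-CoA to the matrix, was at 239, 282 and 367 CPM in WT and 77, 93.4 and 40.8 CPM in sST2-KO libraries. It fell 4.20-fold (edgeR adjusted p = 0.0150). Mlycd encodes malonyl-CoA decarboxylase, which removes the inhibitor of the outer-membrane step, and it fell 2.94-fold from 129 ± 39.0 to 43.7 ± 18.5 CPM (SD, n = 3 each, edgeR adjusted p = 0.0251). Slc25a20, the carrier that moves acylcarnitines across the inner membrane and a gene outside the 34, was at 377, 395 and 511 CPM in WT and 87.5, 86.6 and 51.5 CPM in sST2-KO libraries, with a log2 fold change of -2.51 (SE 0.28, edgeR adjusted p = 0.00932).

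All 8 acyl-CoA dehydrogenases had lower levels in each sST2-KO library than in each WT library, and 6 of them passed the test, with a median log2 fold change of -1.73 over the 8. Acadvl, which takes very long chains at the inner membrane, was at 1418, 2158 and 2736 CPM in WT and 524, 488 and 161 CPM in sST2-KO libraries. It fell 5.38-fold (log2 -2.43, SE 0.50, edgeR adjusted p = 0.0203), and Acads, the short-chain enzyme, fell 5.32-fold (log2 -2.41, SE 0.38, edgeR adjusted p = 0.0136). Acadl, the long-chain enzyme, was at 1417, 1536 and 2118 CPM in WT and 643, 559 and 261 CPM in sST2-KO libraries. Its fall of 3.46-fold was the smaller one of the long-chain pair. Acadm, the medium-chain enzyme, was at 1043, 1156 and 1341 CPM in WT and 564, 429 and 122 CPM in sST2-KO libraries. The WT values lay close together, whereas the sST2-KO values spanned 4.62-fold, and the log2 difference of -1.67 (SE 0.52) missed the threshold (edgeR adjusted p = 0.0591). Acad9, which also takes part in building respiratory complex I, had a small fall of 1.60-fold from 45.2 ± 3.29 to 28.3 ± 4.20 CPM (SD, n = 3 each, edgeR adjusted p = 0.0384). Acad11 fell 3.87-fold and Acad10 fell 3.09-fold, while Acad12 had a log2 difference of -1.06 and an edgeR adjusted p of 0.0852. Acad10 and Acad12 are neighbors on chromosome 5 of GRCm39, at 121759087 to 121799017 and 121734838 to 121757072. Of their transcript windows, 10.9% and 10.2% also occur in other genes, for each most often in its neighbor. How reads from these shared windows were counted is not given, which leaves the levels of both less certain. Acad11 overlaps Ackr4, a chemokine receptor gene on the opposite strand whose level also fell, with a log2 fold change of -2.06 (edgeR adjusted p = 0.0168).

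**Figure D2:**
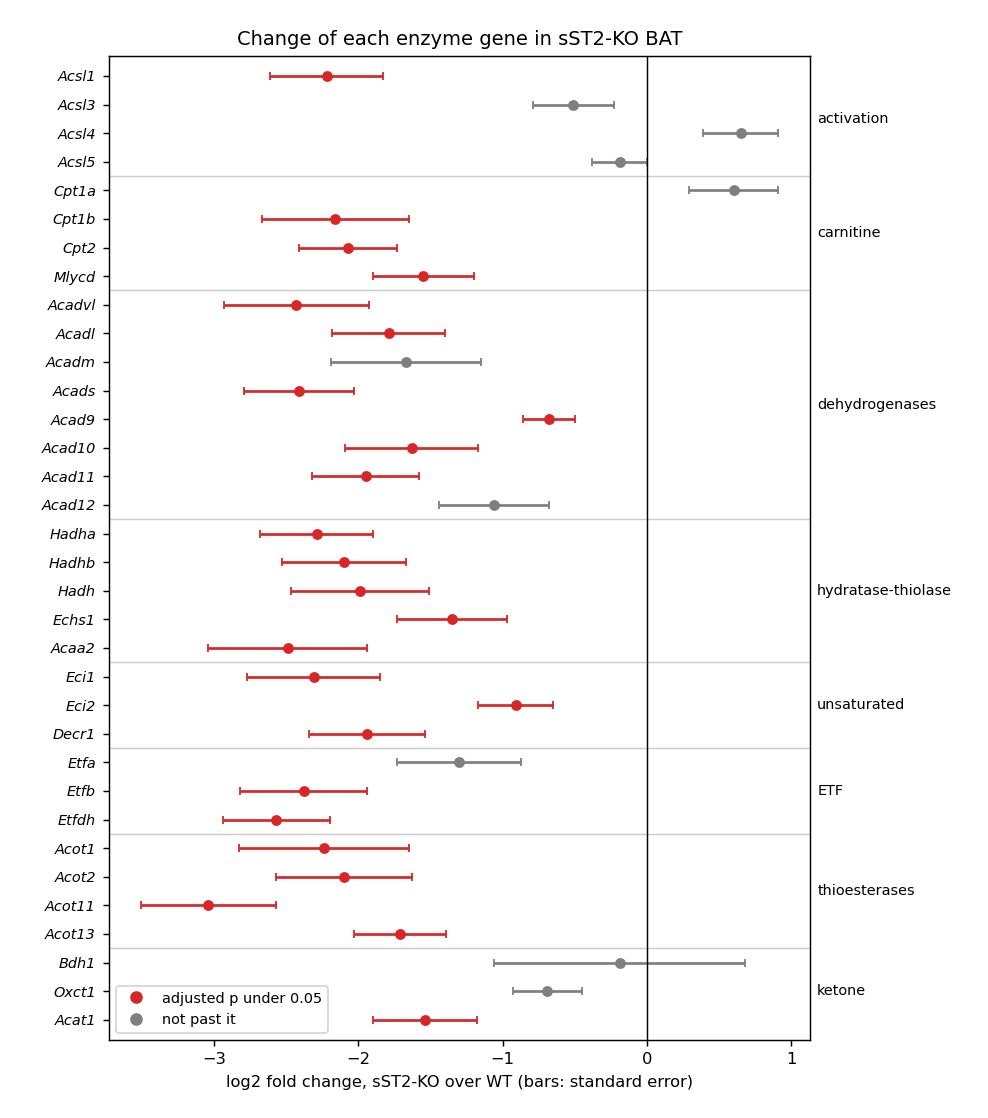
Log2 fold change of each of the 34 genes, sST2-KO over WT, with its standard error as a bar, grouped by step. Red points passed edgeR's test at an adjusted p under 0.05 and gray points did not. The 25 red points all lie below 0, from -3.04 for Acot11 to -0.68 for Acad9.

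All 5 genes of the hydratase, second dehydrogenase and thiolase reactions fell, with a median log2 fold change of -2.10. Hadha and Hadhb encode the alpha and beta subunits of the trifunctional protein, which performs these reactions on long chains. Hadha was at 1022, 1374 and 1755 CPM in WT and 266, 406 and 175 CPM in sST2-KO libraries (log2 fold change -2.29, SE 0.39, edgeR adjusted p = 0.0150). Hadhb was at 1492, 1851 and 2217 CPM in WT and 529, 564 and 205 CPM in sST2-KO libraries (log2 fold change -2.10, SE 0.43, edgeR adjusted p = 0.0195). The pair lies head to head on chromosome 5 of GRCm39, Hadha on the minus strand at 30323302 to 30360187 and Hadhb on the plus strand at 30359204 to 30389997. Of the Hadha transcript windows, 45.3% also occur in other genes, most often in Garem2 on the opposite strand. For Hadhb it was 53.2%, most often in the pseudogene Hadhb-ps. This leaves the levels of both less certain. Acaa2, the thiolase of the matrix, was at 1311, 1859.8 and 2406 CPM in WT and 341, 532 and 118 CPM in sST2-KO libraries. It had the largest fold of the 5 genes, 5.63 (edgeR adjusted p = 0.0241). Hadh, the dehydrogenase of medium and short chains, fell 3.98-fold from 799 ± 222 to 201 ± 104 CPM (SD, n = 3 each, edgeR adjusted p = 0.0291). Echs1, the short-chain hydratase, fell 2.55-fold (edgeR adjusted p = 0.0465), a call that was lost with any one of the 6 libraries left out, as were those of Acad9 and Acad10.

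The 3 auxiliary enzymes for unsaturated chains all fell. Eci1, the mitochondrial enoyl-CoA isomerase, was at 353, 681 and 685 CPM in WT and 130.5, 162 and 54.4 CPM in sST2-KO libraries, a fall of 4.96-fold (edgeR adjusted p = 0.0186). Decr1, the dienoyl-CoA reductase, was at 444, 576 and 697 CPM in WT and 192, 182 and 72.5 CPM in sST2-KO libraries, a fall of 3.85-fold (edgeR adjusted p = 0.0201). Eci2, an isomerase also found in peroxisomes, had a smaller fall of 1.88-fold (edgeR adjusted p = 0.0485), close to the threshold.

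Electron transfer from the dehydrogenases showed the largest median of the 8 steps, -2.38 on the log2 scale. Etfdh, which hands the electrons to ubiquinone, was at 527, 576 and 713 CPM in WT and 119.7, 131 and 54.5 CPM in sST2-KO libraries. It fell 5.95-fold, and its edgeR adjusted p of 0.0135 was the lowest of the 34 genes. Etfb and Etfa are the subunits of the flavoprotein itself. Etfb was at 848, 1245 and 1528 CPM in WT and 237, 341 and 116 CPM in sST2-KO libraries, a fall of 5.22-fold (edgeR adjusted p = 0.0167). Etfa was at 879.8, 977 and 1238 CPM in WT and 527, 549 and 183 CPM in sST2-KO libraries. Its groups did not overlap either, but the log2 difference of -1.30 (SE 0.43) missed the threshold (edgeR adjusted p = 0.0700). Of the Etfb transcript windows, 65.2% also occur in other genes, most often in the overlapping gene Etfbl on the same strand. The level of Etfb may thus be set in part by how shared reads were counted.

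All 4 thioesterases, which split acyl-CoA back into fatty acid and coenzyme A, fell. Acot11, known as a brown fat thioesterase induced by cold, was at 71.6, 28.1 and 95.2 CPM in WT and 8.43, 9.97 and 5.23 CPM in sST2-KO libraries. With a log2 fold change of -3.04 (SE 0.47, edgeR adjusted p = 0.0136), it had the largest change of the 34 genes. Its exons overlap those of Fam151a on the opposite strand, which was at 33.9, 14.4 and 47.6 CPM in WT and 4.04, 4.15 and 2.57 CPM in sST2-KO libraries, in the same order of libraries. Of the Acot11 transcript windows, 15.6% also occur in other genes, most often in Fam151a. Reads from the overlap cannot be assigned to 1 gene without the strand setting of the counting. Acot2, the mitochondrial member, was at 51.9, 178 and 124 CPM in WT and 33.2, 32.6 and 16.8 CPM in sST2-KO libraries (log2 fold change -2.10, edgeR adjusted p = 0.0249). Acot1, its cytosolic near copy, reached at most 18.1 CPM in any library and had a log2 fold change of -2.24 (SE 0.59, edgeR adjusted p = 0.0378). It was -2.97 without sST2-KO replicate 1, and the call was lost without WT replicate 2 or 3 or sST2-KO replicate 2 or 3. The pair lies side by side on chromosome 12 of GRCm39, Acot2 at 84034428 to 84040647 and Acot1 at 84056256 to 84065145. Of the Acot1 windows, 21.8% also occur in other genes, most often in Acot2. Acot13 fell 3.27-fold (edgeR adjusted p = 0.0168). Of its windows, 33% also occur in other genes, most often in Tdp2 on the opposite strand, which had a log2 difference of -0.13.

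Of the 3 ketone body enzymes, 1 fell. Acat1, the mitochondrial acetoacetyl-CoA thiolase, works in both the making and the use of ketone bodies and in isoleucine breakdown. It was at 368, 503 and 623 CPM in WT and 201, 216 and 95.4 CPM in sST2-KO libraries, a fall of 2.91-fold (edgeR adjusted p = 0.0285). Oxct1, the transferase that lets tissues outside the liver use ketone bodies, was at 166, 198 and 259.9 CPM in WT and 122, 152 and 112 CPM in sST2-KO libraries. Every sST2-KO value was the lower one, and the log2 difference of -0.69 (SE 0.24) did not pass the test (edgeR adjusted p = 0.0775). Bdh1, which interconverts the ketone bodies acetoacetate and beta-hydroxybutyrate, had only 13, 100 and 6 counts in WT and 36, 23 and 49 counts in sST2-KO libraries. The high WT value came from replicate 2, the library with liver RNA, whose part in this value was not tested. Bdh1 passed the filter on low counts only through the sST2-KO group. With all libraries the log2 difference was -0.19 (SE 0.87, edgeR adjusted p = 0.894), and without WT replicate 2 it was 1.75 (edgeR adjusted p = 0.0872).

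Levels per kilobase of transcript correct for its length but not for windows shared with other genes, which were 65.2% in Etfb and 86.2% in Cpt1b. On this scale Etfb had the highest WT level at 1352 ± 383 CPM per kb (SD, n = 3). Acaa2 with 1062 ± 313, Acadvl with 952 ± 299 and Hadhb with 912 ± 178 CPM per kb came next, and the steps between these neighbors were smaller than their SDs. In sST2-KO BAT the order began with Etfb at 259 ± 126, Etfa at 242 ± 118 and Hadhb at 213 ± 97.4 CPM per kb, again within their spread. Etfa was sixth in the WT order, with 595 ± 107 CPM per kb. The lowest WT levels were those of Bdh1, Acsl3, Cpt1b and Acot1, between 1.21 and 4.98 CPM per kb.

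Genes that encode alternative forms or subunits of an enzyme were also compared as a log2 ratio of their CPM within each library. So were Oxct1 and Bdh1, successive enzymes of ketone body use. A prior count of 2 was added, and the scaling of libraries enters such a ratio only through it. Of 9 such ratios, 4 did not overlap between the groups. Among all genes tested, levels lay wholly below WT in 19.7% and wholly above it in 21.8%. A share over other gene pairs was not computed, so the count of 4 does not set these pairs apart. Cpt1b over Cpt1a was -1.82, -1.24 and -0.86 in WT and -4.35, -2.81 and -5.19 in sST2-KO libraries. The counted level of the muscle and brown fat form was thus lower relative to Cpt1a in all sST2-KO libraries. As 86.2% of the Cpt1b windows also occur in other genes, the ratio does not give the part of each form in the transferase transcripts. Acsl1 over Acsl4 had a mean of 6.40 ± 0.43 in WT and 3.49 ± 0.72 in sST2-KO mice (SD, n = 3 each). Etfa over Etfb was 0.05, -0.35 and -0.30 in WT and 1.16, 0.68 and 0.66 in sST2-KO libraries, and Acadvl over Acadl had a mean of 0.29 ± 0.26 in WT and -0.40 ± 0.27 in sST2-KO mice (SD, n = 3 each). An exact two-sided permutation test gave p = 0.1 for each of these 4, the smallest it can give with 3 libraries against 3, and 0.225 after adjustment over the 9 ratios. For the subunits of the trifunctional protein, the ratio overlapped between the groups. Hadha over Hadhb was -0.55, -0.43 and -0.34 in WT and -0.99, -0.47 and -0.23 in sST2-KO libraries, and the difference of -0.13 had an exact permutation p of 0.8. The other 4 ratios overlapped, with exact permutation p values of 0.2 to 0.7.

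**Figure D3:**
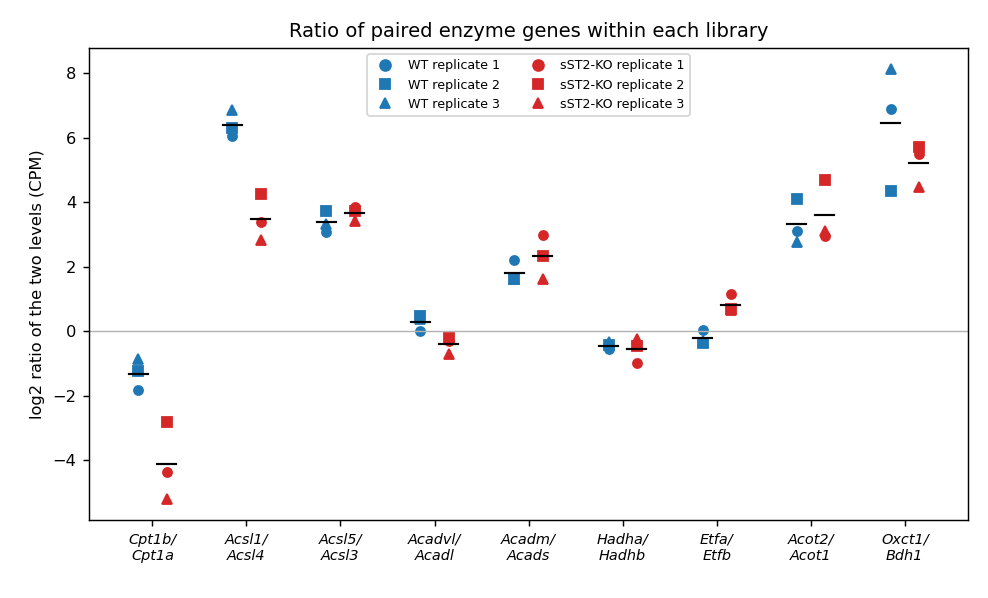
Log2 ratio of the CPM of paired enzyme genes within each library, for 9 pairs, with the group mean as a black line. The 3 WT libraries are blue and the 3 sST2-KO libraries red. The groups are apart for Cpt1b over Cpt1a, Acsl1 over Acsl4, Acadvl over Acadl and Etfa over Etfb.

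Among 17 further genes of mitochondrial fatty acid oxidation, 16 were tested, 6 fell and 1 rose, with a median log2 fold change of -1.11. Besides Slc25a20, those that fell most clearly were Crat, carnitine acetyltransferase, with a log2 fold change of -1.92 (edgeR adjusted p = 0.015), and Acsf3, the malonyl-CoA synthetase of mitochondria, with -1.86 (edgeR adjusted p = 0.0159). The 1 that rose was Acsl6, at 0.84, 0.0942 and 0 CPM in WT and 5.65, 1.31 and 10.3 CPM in sST2-KO libraries (edgeR adjusted p = 0.037). It passed the filter on low counts only through the sST2-KO group, where it is high, so a difference was built into its being tested. Of 18 peroxisomal beta-oxidation genes tested, 10 fell and 0 rose, with a median of -1.31. Acaa1b, a peroxisomal thiolase, had a log2 fold change of -3.11 (edgeR adjusted p = 0.009) and Abcd3, a transporter of the peroxisomal membrane, one of -2.18 (edgeR adjusted p = 0.01). Abcd2, a related transporter, was the 1 gene of this list with every sST2-KO value above WT, and its log2 difference of 0.68 did not pass the test (edgeR adjusted p = 0.0627). In the tricarboxylic acid cycle, which takes up the acetyl-CoA, 17 of 18 genes fell, with a median of -1.91, and Suclg2 was the exception (log2 difference -0.35, edgeR adjusted p = 0.557). The acetyl-CoA carboxylases Acaca and Acacb, which make malonyl-CoA, had log2 differences of -1.34 and -1.18 and did not pass the test (edgeR adjusted p = 0.0773 and 0.108).

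Transcription factors and coactivators known to control these enzymes were read in the same libraries. Of 15, 4 fell and 0 rose, with a median log2 fold change of -0.98. Ppargc1a, the coactivator PGC-1alpha, was at 149.9, 252 and 171 CPM in WT and 20.4, 59.2 and 45.1 CPM in sST2-KO libraries (log2 fold change -2.20, edgeR adjusted p = 0.0167). Esrra, an estrogen-related receptor, was at 126, 114 and 172 CPM in WT and 36.5, 40.5 and 43 CPM in sST2-KO libraries (log2 fold change -1.78, edgeR adjusted p = 0.01). Gabpa and Klf15 fell as well, with log2 fold changes of -0.98 and -1.64 (edgeR adjusted p = 0.0186 and 0.0497). Ppara was at 211, 181 and 146 CPM in WT and 66.1, 161 and 27.1 CPM in sST2-KO libraries, which overlap, and its log2 difference of -1.08 did not pass the test (edgeR adjusted p = 0.208).

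The cell type markers that moved with these enzymes are given as summed CPM over fixed lists. Brown adipocyte markers summed to 8534, 10764 and 16309 CPM in WT and 589, 1930.3 and 356 CPM in sST2-KO libraries, and 8 of 9 fell. Markers of adipocytes of any kind summed to 19941, 23943 and 25679 CPM in WT and 13808, 13803 and 7806 CPM in sST2-KO libraries. Of the 8, 1 fell, Adipoq, against 9.10% of all genes tested. All 8 log2 differences were below 0, with a median of -0.92. In 5 of them each sST2-KO library lay below each WT library, as in 19.7% of all genes. Fabp4 was the most abundant of the 8, at a mean of 10531 CPM in WT and 5355 CPM in sST2-KO libraries. Set against those general adipocyte markers, the 34 enzyme genes stood at 0.788, 0.871 and 0.975 in WT and 0.444, 0.495 and 0.38 in sST2-KO libraries, as a ratio of the sums. This ratio did not overlap between groups and its sST2-KO mean was 0.501 of its WT mean. Set against the tricarboxylic acid cycle genes, the ratio was 1.1, 1.13 and 1.03 in WT and 1.28, 1.12 and 1.07 in sST2-KO libraries, which overlap. Set against the brown adipocyte markers, it ran the other way, at 1.84, 1.94 and 1.54 in WT and 10.4, 3.54 and 8.33 in sST2-KO libraries, without overlap, so the summed enzyme transcripts were less far below WT than those markers.

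Skeletal muscle markers summed to 1659.6, 131 and 59.7 CPM in WT and 8301, 4449.8 and 18858 CPM in sST2-KO libraries. All 18 were above WT in every sST2-KO library, 4 of them past the test, and 5 of the 18 were at 0 in at least 1 WT library. Of those 4, Pvalb had 89, 3 and 0 counts in WT libraries and Myoz1 had 70, 5 and 0. Both passed the filter on low counts only through the sST2-KO group, as did others of the 18, so a difference was built into their being tested. sST2-KO replicate 3 was the highest of the 6 libraries for Cpt1a and Acsl4. It had the highest sums of muscle, macrophage, T cell, neutrophil and fibroblast markers, and the part of each in these levels was not tested. Acsl6 had the same order of all 6 libraries as the summed muscle markers. Cpt2 and all 8 dehydrogenases were lowest in that replicate, and Cpt1b was at 1.97 CPM there. Macrophage markers summed to 892 to 1198 CPM in WT and to 1580.4 to 6765 CPM in sST2-KO libraries, again highest in replicate 3. Of the 10, 2 rose, Lyz2 and Itgam. Lyz2 alone held 1559 CPM of the mean sST2-KO sum of 3348 CPM. In 4 of the 10 each sST2-KO library lay above each WT library, as in 21.8% of all genes. T cell markers summed to 9.61 to 14.7 CPM in WT and 101 to 139 CPM in sST2-KO libraries, and 6 of 7 tested rose. Neutrophil markers summed to 30.6 to 131 CPM in WT and 141 to 684 CPM in sST2-KO libraries, and 2 of 5 rose. Among the T cell and neutrophil markers that rose, Cd3g had 10, 15 and 8 counts in WT libraries and Cxcr2 had 6, 12 and 23. Both passed the filter on low counts only through the sST2-KO group, so a difference was built into their being tested. Of 6 endothelial markers 1 fell and 1 rose, and fibroblast markers summed to 2015 to 6270.4 CPM in WT and 1164 to 10135 CPM in sST2-KO libraries, which overlap. The share of these cell types in the lower enzyme levels was not tested.

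**Figure D4:**
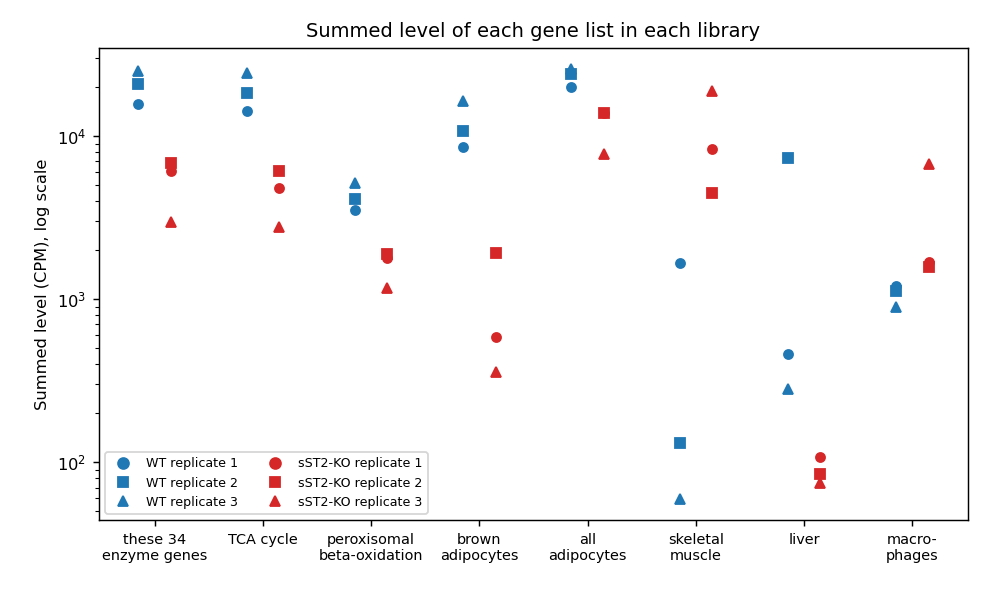
Summed level of 8 gene lists in each library, in CPM on a log scale, with WT in blue and sST2-KO in red. The 34 enzyme genes, the tricarboxylic acid cycle, the peroxisomal genes and both adipocyte lists lie lower in all sST2-KO libraries, the muscle and macrophage lists lie higher, and the liver list is high in WT replicate 2.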

How the data were processed

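Total RNA of BAT was sequenced as 150 bp paired-end reads. The authors aligned them with HISAT2 to mm39 and deposited htseq-count counts per gene symbol without normalization (FastQC 0.12.1 and HISAT2 2.2.1 per the submitters' processing notes). The version, annotation and strand setting of htseq-count are not given in the sources used here. The table has 35976 rows, of which 24599 held a count, and 27 symbols had turned into dates. No per-sample column was left unused (0 columns).

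The members and lists were chosen with earlier results of these data known. Every member is named, and of other lists at most 4 called genes by smallest adjusted p, plus those against the rest of their list. Ppara, Acaca, Acacb, Il1rl1, Ackr4, Fam151a and Tdp2 were named for their bearing on a member. The results of 1 further list are not reported here.

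In R 4.3.3, edgeR 4.0.16 was run with filterByExpr, TMM factors of 0.825 to 1.14 and the quasi-likelihood test without a covariate. The standard error (SE) was the log2 fold change over the root of F. The methods name DESeq2, which was an alternative (1.42.0), beside RLE size factors, scaling to total counts, an unfiltered table, a minimum of 10 counts in every library, robust estimation, a replicate block and each library left out. The removal of 2 libraries and the leave-one-out of ratios were added after seeing the data. Ratios were tested by exact permutation in scipy 1.17.1. The steps were tested on simulated data. Libraries of a group were not copies of each other. Labels give replicate numbers but no litter or batch, and deviations of same-numbered libraries correlated by -0.058, 0.21 and -0.31, so the numbers were not taken as pairs. Nothing in the labels says how the 3 samples of a group were sampled beyond their numbers, so p-values measure the spread between these samples. Positions, lengths (canonical transcript) and overlaps are from the GENCODE annotation of GRCm39, and shared windows were 100 bases long. Python 3.11.15 with matplotlib 3.10.9 drew the figures.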

Additional observations from a re-analysis of the deposited data

How the results depend on the processing

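The number of the 34 enzyme genes that fell, 25 with all libraries, was 25 with RLE factors, 25 with robust estimation, 24 without a filter, 24 of 32 with a minimum of 10 counts in every library, 21 with total counts and 29 with DESeq2. In the same order, 9.40%, 9.14%, 5.36%, 9.52%, 6.13% and 10.2% of all genes fell. It ranged from 0 to 21 with single libraries left out and was 13 without WT replicate 2 and sST2-KO replicate 3. None of the 34 rose in any of these settings. Over all genes, 1323 fell and 1524 rose. With single libraries left out, 22 to 1189 fell and 36 to 1502 rose, and with those 2 libraries left out, 462 fell and 443 rose. With the replicate number as a block, 0 of the 34 genes fell and 0 genes in all fell or rose (29 of the 34 and 4623 of all genes had an unadjusted p under 0.05). No pairing of the numbers was found in the data.

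Few signs turned. With total counts, which moved the median of all genes from 0.03 to 0.29, Acsl5 was at 0.08 and Bdh1 at 0.07 on the log2 scale. Bdh1 was at 0.52 with the block, 1.75 without WT replicate 2 and 1.38 without the 2 libraries. With single libraries left out, the log2 fold change of Bdh1 ranged from -0.67 to 1.75. The difference in log2 ratio of Hadha over Hadhb was 0.09 without sST2-KO replicate 1, and that of Acot2 over Acot1 was -0.02 without WT replicate 3 and -0.30 without sST2-KO replicate 2, in a range of -0.30 to 0.65. The cause was not tested. Counting error weighs most on Bdh1 and Acot1, whose lowest libraries had 6 and 9 counts.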
